A study of Caenorhabditis elegans with 2 samples.

Results

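Cytochrome P450 (cyp), glutathione S-transferase (gst) and UDP-glucuronosyltransferase (ugt) genes were examined for binding of CEBP-1, a C/EBP-type protein that regulates transcription through a bZIP domain, in whole Caenorhabditis elegans. The members were all protein-coding genes on the 6 nuclear chromosomes whose symbol starts with cyp-, gst- or ugt-, apart from 1 gst gene that is not reported here. They numbered 184 of 19973 such genes, made up of 74 cyp, 43 gst and 67 ugt genes. Each was described by its best peak, the optimal peak with the highest signal value among those whose summit lies no more than 1000 bp upstream and 200 bp downstream of the gene's annotated 5′ end. That window is called the promoter here.

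The data came from chromatin immunoprecipitation with sequencing (ChIP-seq) in a single group of 2 biological replicates, numbered 3 and 7 in the labels, so no contrast between conditions could be made. Both used 1 transgenic strain, OP563, of genotype unc-119(tm4063) III; wgIs563, in which wgIs563 carries CEBP-1 with GFP and FLAG at its C-terminus. Young adults of pooled sexes were collected 63 hours after synchronization as starved L1 larvae, with no treatment stated. Precipitation used an antibody to GFP according to the description, although another label names cebp-1, and the promoter that drives the transgene is not given in the sources used here. Signal from whole animals does not show the tissue it came from, animals without the tagged protein were not analysed here, and sequencing depth is unknown for both samples, since peak lists hold no read counts.

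The 3 families act on lipophilic compounds, whether foreign or made in the body. Cytochrome P450s are heme enzymes that oxidize their substrates, glutathione S-transferases join reactive compounds to glutathione, and UDP-glucuronosyltransferases add a sugar from a nucleotide donor, after which export pumps can remove the product. In C. elegans many of these genes are expressed in the intestine, several are induced by toxins, and many lie in tandem arrays of similar copies. C/EBP and related bZIP proteins bind DNA as dimers, and the C/EBP core was searched here as TTGCGCAA, TTGCGTAA, TTACGCAA or TTACGTAA.

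Of the 184 genes, 23 had an optimal promoter summit, which is 12.5% (95% Wilson interval 8.48% to 18.1%, counting error only, as for all intervals here), against 14.9% of all protein-coding genes (2980 of 19973). The gst family had the highest share, 9 of 43 genes or 20.9% (11.4% to 35.2%). The cyp family had 8 of 74, 10.8% (5.58% to 19.9%), and the ugt family 6 of 67, 8.96% (4.17% to 18.2%). All 3 intervals overlap each other and hold the share of all genes. In the optimal list, neither the families nor the enzymes as a whole therefore stood apart from the background by their counts. The gst count rested in part on replicate 3 and on weak peaks. From the strongest peaks of replicate 7 alone it was 5 (11.6%), with 8 cyp genes (10.8%) and 8 ugt genes (11.9%), against 13.5% of all genes. Among the strongest 50% of optimal peaks it was 4 (9.30%), with 7 cyp genes (9.46%) and 4 ugt genes (5.97%), against 9.16% of all genes. The strength of the peaks gave another order, in which cyp genes came first.

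**Figure D1:**
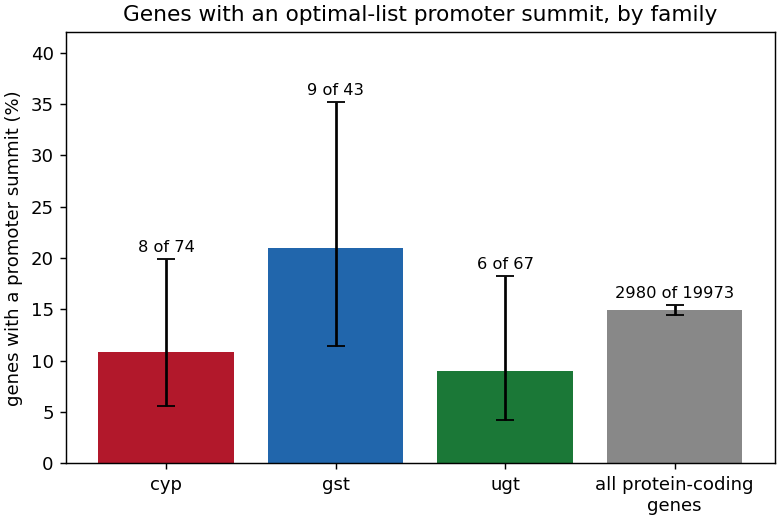
Share of genes with a promoter summit in the optimal list (vertical axis, percent) for the cyp, gst and ugt families and for all protein-coding genes; error bars are 95% Wilson intervals and labels give counts. The gst bar is the highest at 20.9% and all 3 family intervals include the 14.9% of all genes.

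The sequences under the peaks that carry these results are given here on the gene's coding strand, 5′ to 3′, from the WBcel235 (ce11) assembly, within 60 bp of the summit and ending where an annotated exon begins. For the peak shared by cyp-33C6 and cyp-33C7 the strand is that of cyp-33C6. Capitals mark the matches to the searched words TTGCGAAA, AGACGCAG, TGATGCAA, CACGTG and TGATAA on either strand, so TTTCGCAA, CTGCGTCT, TTGCATCA and TTATCA are matches read on the opposite strand. The first 5 are from the strongest distinct peaks of the 3 families, at chrV:3803543-3803613 (−) for cyp-33C8, chrV:2250239-2250359 (−) between cyp-33C6 and cyp-33C7, chrV:15916071-15916142 (−) for gst-38, chrX:5714196-5714316 (+) for cyp-43A1 and chrIV:6080053-6080136 (−) for ugt-19.
cyp-33C8: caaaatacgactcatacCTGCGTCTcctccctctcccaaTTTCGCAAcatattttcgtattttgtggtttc
cyp-33C6 and cyp-33C7: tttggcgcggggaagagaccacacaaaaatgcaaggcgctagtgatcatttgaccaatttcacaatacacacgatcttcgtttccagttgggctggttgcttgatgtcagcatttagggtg
gst-38: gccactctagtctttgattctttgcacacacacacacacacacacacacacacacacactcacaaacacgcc
cyp-43A1: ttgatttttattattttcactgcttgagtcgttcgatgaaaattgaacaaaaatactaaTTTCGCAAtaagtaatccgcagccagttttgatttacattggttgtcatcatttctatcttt
ugt-19: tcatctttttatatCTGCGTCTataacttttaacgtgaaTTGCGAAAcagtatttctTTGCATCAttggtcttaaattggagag

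The next 5 are shown because a result below turns on them: gst-27 at chrII:15166029-15166135 (−), where the replicates differed most among the strong peaks, ugt-50 at chrX:12691400-12691520 (+) with TGATAA, cyp-13A8 at chrII:9807675-9807795 (−) with TGATGCAA, cyp-33C4 at chrV:2236019-2236139 (+), whose window has a near copy in a neighbouring gene, and gst-42 at chrX:11727937-11728018 (−), which had no summit in replicate 7.
gst-27: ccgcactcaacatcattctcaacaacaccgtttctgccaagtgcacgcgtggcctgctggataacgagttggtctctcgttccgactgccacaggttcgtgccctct
ugt-50: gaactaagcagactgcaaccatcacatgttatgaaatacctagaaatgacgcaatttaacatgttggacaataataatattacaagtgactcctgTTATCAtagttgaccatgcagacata
cyp-13A8: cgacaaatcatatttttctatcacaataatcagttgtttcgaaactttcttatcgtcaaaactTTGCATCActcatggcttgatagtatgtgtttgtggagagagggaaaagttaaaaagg
cyp-33C4: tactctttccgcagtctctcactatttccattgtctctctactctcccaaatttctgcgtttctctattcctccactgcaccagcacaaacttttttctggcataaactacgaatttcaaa
gst-42: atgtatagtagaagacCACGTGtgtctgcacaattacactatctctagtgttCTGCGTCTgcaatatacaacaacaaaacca

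The 23 genes shared 22 distinct best peaks, since cyp-33C6 and cyp-33C7 have 1 in common. Within 50 bp of the summit, TTGCGAAA was present in 4 of the 22 (18.2%, 7.31% to 38.5%), against 14.9% of all 5982 optimal peaks. These were the peaks of cyp-33C8, gst-38, cyp-43A1 and ugt-19, which are 4 of the 5 strongest, and it was absent from the other 17. In gst-38 the word lies on the gene's side of the 5′ end, outside the sequence printed, which shows a long run of alternating c and a. All optimal peaks had the same kind of gradient: of the 658 of rank 658 or better, 50.9% held TTGCGAAA, against 10.4% of those ranked lower. Like AGACGCAG, this word came from an earlier search of these same peaks, and rank 658 is that of ugt-19. The gradient is therefore a description and no independent support. AGACGCAG was found in 3 of the 22 member peaks, those of cyp-33C8, ugt-19 and gst-42 (13.6%, against 6.69% of all peaks).

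The C/EBP core lay within 50 bp of 1 summit, that of ugt-28 (4.55%, 0.807% to 21.8%, against 1.27% of all optimal peaks). TGATGCAA, a word that joins parts of C/EBP and ATF sites, was found at ugt-19 and cyp-13A8 (9.09%, 2.53% to 27.8%, against 0.819%). Within 100 bp it was present in 4 of the 22 peaks, those of cyp-33C8, ugt-19, ugt-50 and cyp-13A8, or 18.2%, against 1.55% of all peaks. CACGTG, the word bound by many basic helix-loop-helix and some bZIP proteins, was at gst-20 and gst-42 (9.09%, against 5.52%). TGATAA, the word bound by intestinal GATA factors, was within 50 bp at ugt-50 only (4.55%, against 11%), but within 100 bp in 6 of the 22 (27.3%, against 20.2%), so its place relative to the background turned with the window. The AP-1 words TGACTCA and TGAGTCA were in none of the 22 (Wilson upper limit 14.9%, or 13.6% by 3 counts of the total), against 1.81% of all peaks. In 13 of the 22 none of these words was found, and all matches are descriptions of letters in these windows.

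Signal values are the authors' own for each peak and are used here only to rank peaks and, after division by the replicate's own median for optimal peaks, as a relative signal on which 1 is the typical optimal peak. Mean ± SD is over the 2 replicates. Among cyp genes, the peak of cyp-33C8 (WBGene00019967, V 3803280 to 3803803) was the strongest of all members. It ranked 156 of 5982, with a relative signal of 7.01 in replicate 3 and 6.47 in replicate 7 (6.74 ± 0.378). Its summit lay 11 bp upstream of the 5′ end. The rank was 171 in the list of replicate 3 and 198 in that of replicate 7, so both placed it near the top.

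The second cyp peak, V 2250061 to 2250536, lies between cyp-33C6 and cyp-33C7, which are transcribed away from each other. Its summit was 889 bp upstream of cyp-33C6 (WBGene00018264) and 241 bp upstream of cyp-33C7 (WBGene00018260). It ranked 249, with a relative signal of 5.80 in replicate 3 and 4.44 in replicate 7 (5.12 ± 0.961). Both genes are counted as having a promoter summit, and the position alone does not assign the peak to 1 of them.

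In cyp-43A1 (WBGene00017108) the best summit was 266 bp upstream, at X 5714034 to 5714460 and rank 587. Its relative signal was 3.33 in replicate 3 and 3.20 in replicate 7 (3.26 ± 0.0937), among the closest pairs of values. Further optimal summits lay 899 bp upstream (rank 3585, 0.983 ± 0.929) and 1106 bp downstream, inside the gene but not in an exon (rank 3662, 0.753 ± 0.167). Counting the promoter and the gene body, cyp-43A1 therefore had 3 optimal summits.

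The remaining cyp peaks were weaker. That of cyp-25A4 (WBGene00007967, III 3852191 to 3852473) ranked 1487, with 1.44 in replicate 3 and 2.15 in replicate 7 (1.80 ± 0.502), and a second summit 487 bp upstream ranked 4448. The peak of cyp-13A8 (WBGene00011674, II 9807633 to 9807856), 166 bp upstream, ranked 2398 with 1.36 in replicate 3 and 0.710 in replicate 7. It faces 18878 bp without another protein-coding gene, the longest upstream space of the 23. The peak of cyp-33C4 (WBGene00018413, V 2235969 to 2236166), 61 bp upstream, ranked 2656 with 1.23 in replicate 3 and 0.742 in replicate 7. The weakest, that of cyp-13A5 (WBGene00011672, II 9800213 to 9800642), ranked 4869 with 0.858 in replicate 3 and 0.190 in replicate 7, the largest ratio between replicates among the members with both values. It was the only cyp peak outside the top 5982 of a replicate, at rank 22841 in replicate 7.

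Among gst genes, whose products are mostly of a nematode-specific class, the peak of gst-38 (WBGene00001786, V 15915891 to 15916288) was the strongest, at rank 407. Its summit lay 12 bp upstream, and its relative signal was 3.71 in replicate 3 and 4.75 in replicate 7 (4.23 ± 0.735). The gst-27 peak (WBGene00001775, II 15165861 to 15166243) followed at rank 799, with 1.90 in replicate 3 and 4.18 in replicate 7 (3.04 ± 1.61). Its summit, 344 bp upstream, also lay 47 bp from the snoRNA gene Y53F4B.48, which stands between gst-27 and gst-28. Replicate 7 placed this peak at rank 417, and replicate 3 at rank 1392.

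The gst-9 peak (WBGene00001757, II 4891263 to 4891791) ranked 1076, with 1.79 in replicate 3 and 2.86 in replicate 7 (2.33 ± 0.756), and its interval held a second summit 95 bp inside the gene (rank 3561). In gst-5 (WBGene00001753, II 10950084 to 10950382) the best summit was 108 bp upstream at rank 1989, with nearly equal values of 1.40 in replicate 3 and 1.35 in replicate 7 (1.38 ± 0.0300). A second gst-5 summit 763 bp upstream ranked 2632 (1.08 ± 0.111). These 4 gst peaks were also the only ones of the family among the 2991 highest-ranked optimal peaks.

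The other 5 gst peaks all had relative signals below 1 in each replicate that held them. That of gst-20 (WBGene00001768, II 13609578 to 13610007) ranked 4213, with 0.821 in replicate 3 and 0.306 in replicate 7, and its summit lay 31 bp inside the gene, in its own 5′ UTR. The gst-1 peak (WBGene00001749, III 9058982 to 9059155), 279 bp upstream of a gene for a homolog of the mammalian pi-class transferase, ranked 4411 with 0.637 in replicate 7. Replicate 3 had no summit within 100 bp of it and instead had 1 at 161 bp upstream, of rank 3405. The gst-43 peak on chromosome I (WBGene00001791, I 2900841 to 2901270, rank 4786) had 0.637 in replicate 3 and 0.544 in replicate 7 and lies also in the promoter of copa-1, which encodes a coatomer subunit. The gst-42 peak (WBGene00001790, X 11727743 to 11728172, rank 5364), for a zeta-class transferase of tyrosine breakdown, had 0.671 in replicate 3 and no summit anywhere in the promoter in replicate 7. It is shared with D1053.2. The gst-7 peak (WBGene00001755, II 4881679 to 4882108) ranked 5923, with 0.689 in replicate 3 and 0.284 in replicate 7, and was the last member inside the optimal list.

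Among ugt genes, ugt-19 (WBGene00019515) had the strongest promoter peak, IV 6079913 to 6080281 at rank 658. Its summit was 161 bp upstream, and its relative signal was 3.02 in replicate 3 and 3.17 in replicate 7 (3.09 ± 0.104). Its window held TTGCGAAA, AGACGCAG and TGATGCAA together, the only member peak with all 3. The summit lay 24 bp from the piRNA gene 21ur-2987. The ugt-50 peak (WBGene00011564, X 12691301 to 12691616), 113 bp upstream, ranked 1627 with 1.57 in replicate 3 and 1.77 in replicate 7 (1.67 ± 0.137), and a further summit 917 bp upstream ranked 3797.

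The ugt-28 peak on chromosome I (WBGene00015693, I 4727105 to 4727343), 45 bp upstream, ranked 2782 with 0.839 in replicate 3 and 1.32 in replicate 7. The ugt-18 peak (WBGene00013900, V 12819258 to 12819395) ranked 2836 with 1.10 in replicate 3 and 0.822 in replicate 7, but its summit lay 938 bp upstream of ugt-18, in the 5′ UTR of the neighbouring gene ZC443.4. The ugt-25 peak (WBGene00015692, I 4731241 to 4731670) ranked 4018 with 0.522 in replicate 3 and 0.944 in replicate 7. The ugt-24 peak (WBGene00016762, IV 6210517 to 6210946), which lies also in the promoter of C49A9.6, ranked 5636 with 0.556 in replicate 3 and 0.220 in replicate 7.

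**Figure D2:**
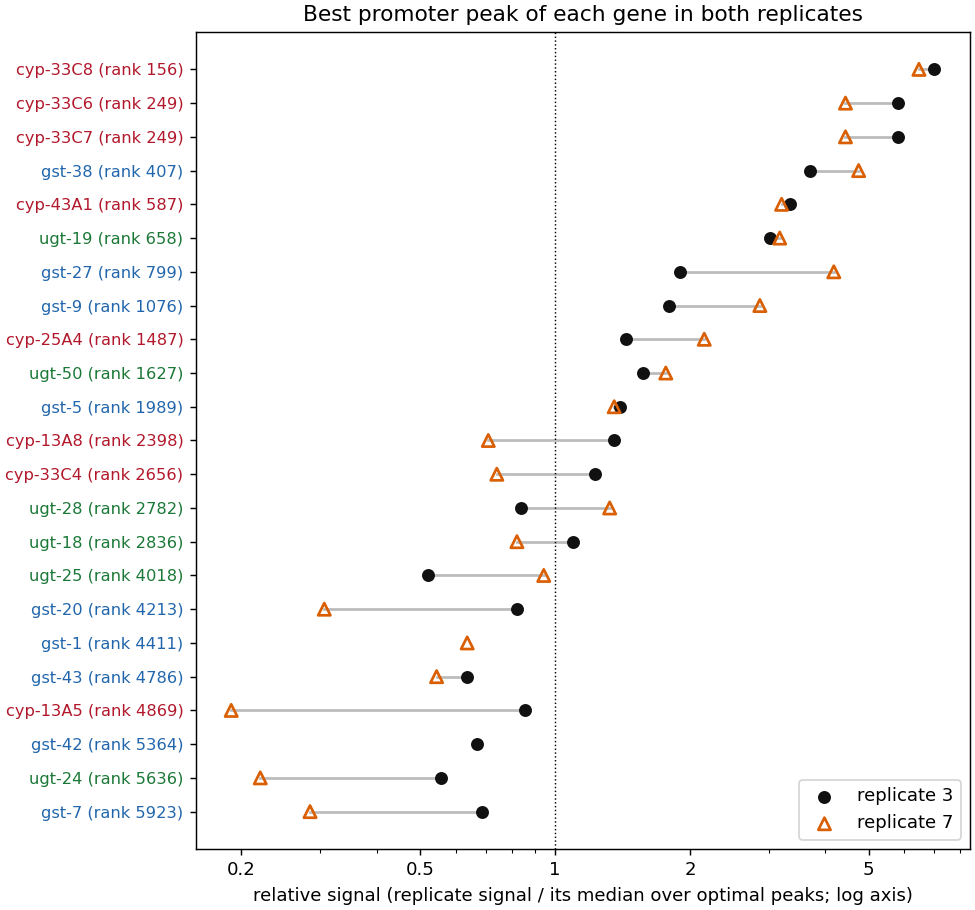
Relative signal (horizontal log axis, 1 is the replicate's median over optimal peaks) of the best promoter peak of each of the 23 genes in replicate 3 (filled circles) and replicate 7 (open triangles), ordered by rank in the optimal list; label colours mark cyp (red), gst (blue) and ugt (green). The 11 strongest lie above 1 in both replicates, and gst-1 and gst-42 have a value in 1 replicate only.

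The median relative signal was 1.38 over the 21 member genes with a value in both replicates, against 1.21 over the 2677 such genes of the whole genome. Over the members' 20 distinct peaks with both values it was 1.23. By family it was 2.53 for the 8 cyp genes, or 1.80 over their 7 distinct peaks, 1.38 for 7 gst genes and 1.02 for 6 ugt genes. The gst value leaves out the weak peaks of gst-1 and gst-42, which lack a value in 1 replicate. By the rank of all distinct peaks the medians were 1487 for cyp, 4213 for gst and 2809 for ugt, so the gst peaks had the lowest median rank. The ranges overlapped widely, running over 0.524 to 6.74 for cyp, 0.487 to 4.23 for gst and 0.388 to 3.09 for ugt. Of the 23 genes, 15 (65.2%) had their best peak among the 2991 highest-ranked optimal peaks, against 61.4% of all genes with a promoter summit. They included 7 of 8 cyp, 4 of 9 gst and 4 of 6 ugt genes, which is 14 of the 22 distinct peaks. The median rank of the members' best peaks, 2398, lay close to that of all genes, 2378.5.

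Both replicates held the best peaks of most cyp and ugt genes and of fewer gst genes. A peak was counted as held by both where each replicate's 5982 strongest peaks included a summit no farther than 100 bp away. This held for 6 of the 7 distinct cyp peaks (48.7% to 97.4%), 5 of 6 ugt peaks (43.6% to 97.0%) and 4 of 9 gst peaks (18.9% to 73.3%). Counted by gene it held for 16 of 23 (69.6%), against 65.7% of all genes with a promoter summit. By gene, replicate 3 held 22 of the 23 (95.7%, against 90.8% for all genes) and replicate 7 held 17 (73.9%, against 73.0%). The families' intervals overlap, and the gst peaks not held by both ranked from 4213 down to 5923.

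Taken from its own 5982 strongest peaks, replicate 3 had promoter summits at 25 members (13.6%) and replicate 7 at 21 (11.4%), with 17 in common, which is 68.0% of those in replicate 3 and 81.0% of those in replicate 7. For all genes the counts were 3131 (15.7%) in replicate 3 and 2687 (13.5%) in replicate 7, and the genes in common were 68.3% and 79.6% of them, close to the members' shares. The lists held 9 gst genes in replicate 3 and 5 in replicate 7, all 5 shared, and 7 ugt genes in replicate 3 and 8 in replicate 7, of which 5 were shared. Genes reached in replicate 3 only were cyp-13A5, cyp-34A8, gst-7, gst-20, gst-42, gst-43, ugt-20 and ugt-24. Those reached in replicate 7 only were cyp-14A4, ugt-2, ugt-13 and ugt-62. The peaks of ugt-62 (rank 1231 in replicate 7), cyp-14A4 (rank 2340 in replicate 7) and ugt-20 (rank 1825 in replicate 3) were strong in 1 replicate, and none of the 3 genes had a promoter summit among the 30000 of the other replicate or of the pooled list.

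**Figure D3:**
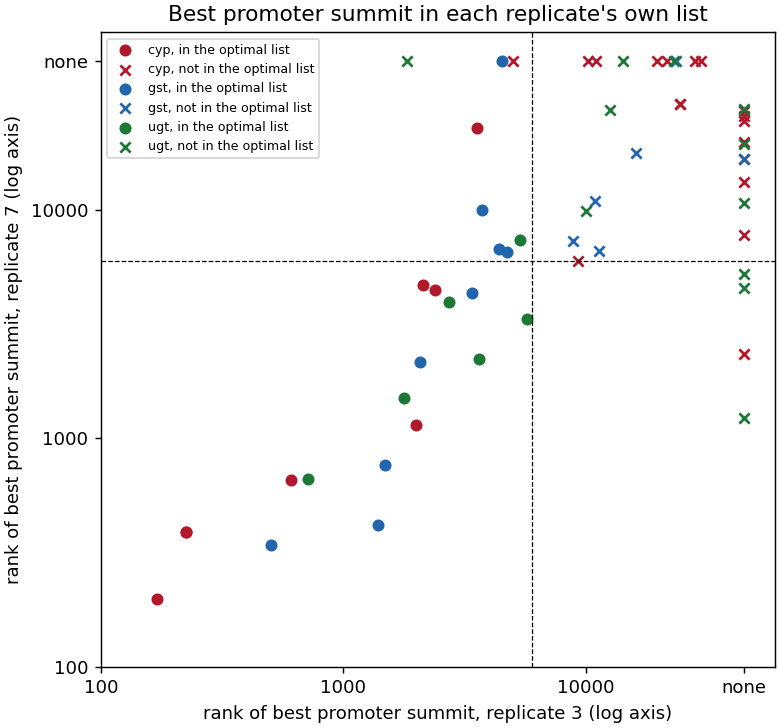
Rank of the best promoter summit of each member in the 30000-peak list of replicate 3 (horizontal, log axis) and replicate 7 (vertical, log axis), with "none" for no summit; circles are genes in the optimal list, crosses are not, and dashed lines mark rank 5982. The strongest members lie near the diagonal, while several crosses sit on a "none" line with a rank better than 5982 in the other replicate.

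Most members had no promoter summit at any depth of the lists, and most of all protein-coding genes had none in the pooled list. In the pooled list of 30000, which also holds background, 39 of the 184 genes had one (21.2%, 15.9% to 27.7%), against 28.8% of all genes. The family counts were 17 cyp genes (22.97%, 14.9% to 33.7%) and 13 gst genes (30.2%, 18.6% to 45.1%). For ugt genes the count was 9 (13.4%, 7.23% to 23.6%). The intervals for ugt and for all members lay below the share of all genes, while those for cyp and gst held it. In none of the 3 lists of 30000 did 125 members (67.9%) have a promoter summit, a share not computed for all genes. Just outside the optimal list came gst-8 (rank 7127), gst-28 (7916), cyp-36A1 (8955), a P450 known from oxygen and stress responses, gst-24 (9062) and ugt-65 (10539). Their pooled signal values ran over 79.7 to 122, against 149 for gst-7 just inside. Of these 5, the 3 gst genes belong to tandem clusters in which another gst gene did have an optimal peak. The gst-8 summit lay 865 bp upstream, past its 353 bp of upstream space and inside the neighbouring gene gst-7. The cyp-36A1 summit lay 911 bp upstream.

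Summits of members lay close to the 5′ end. In 19 of 23 genes (82.6%, 62.9% to 93.0%) the best summit was 0 to 300 bp upstream, against 51.1% of all genes with a promoter summit, and the median distance was 150 bp, against 238 bp. The exceptions were cyp-33C6, ugt-18 and gst-27, which were farther away, and gst-20, inside the gene. In 21 of 23 (91.3%) the summit was inside no annotated gene, against 74.9% for all genes. The 300 bp limit was chosen after the members' distances were seen. Members with a peak had a median of 618 bp of upstream space before the next protein-coding gene, and those without had 870 bp. All genes, with or without a peak, had 937 bp, which is a wider set than the one used for the distances. The part of that spacing in the distances was not tested.

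**Figure D4:**
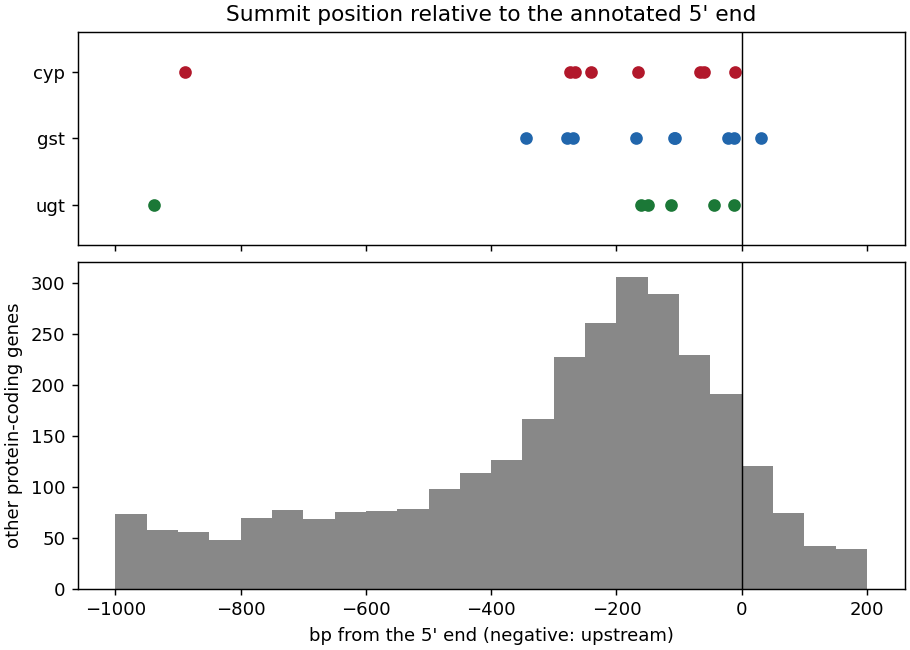
Distance of the best summit from the annotated 5′ end (horizontal, bp, negative is upstream) for the 23 cyp, gst and ugt genes with a promoter summit (upper panel, 1 point per gene) and for the other protein-coding genes with one (lower panel, number of genes per 50 bp bin of distance). All but 4 member points lie between 300 bp upstream and the 5′ end.

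The best peak lay in more than 1 promoter for 5 of 23 members (21.7%, against 42.4% of all genes with a promoter summit), namely cyp-33C6, cyp-33C7, gst-42, gst-43 and ugt-24. More than 1 optimal summit was found in the promoters of cyp-25A4, cyp-43A1, gst-5, gst-9 and ugt-50, again 5 of 23, against 9.33%. Inside genes, farther than 200 bp from the 5′ end, 7 of 184 members had an optimal summit (3.80%, 1.85% to 7.64%), against 7.53% of all genes. They comprised 5 ugt genes, cyp-36A1 and cyp-43A1, and none of the 43 gst genes (Wilson upper limit 8.20%, or 6.98% by 3 counts of the total). The strongest was in ugt-2 (V 10399331 to 10399682), 692 bp inside the gene and outside its exons. It ranked 844 with 2.47 in replicate 3 and 2.91 in replicate 7 (2.69 ± 0.314) and held TTGCGAAA, so its strength was near that of the ugt-19 promoter peak. The peaks of ugt-43 (1.08 ± 0.0731) and ugt-45 (1.38 ± 1.04) were in coding sequence.

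Tandem clusters were defined as genes of 1 family with at most 10 kb to the next member. There were 27, with 105 of the 184 genes: 12 cyp, 4 gst and 11 ugt clusters. Of the clustered genes 13 (12.4%, 7.38% to 20.04%) had a promoter summit, against 10 of the 79 solitary genes (12.7%, 7.02% to 21.8%), so the shares did not differ beyond counting error. Within families the counts were 5 of 44 clustered against 3 of 30 solitary cyp genes, 4 of 24 against 5 of 19 gst genes, and 4 of 37 against 2 of 30 ugt genes. The 13 genes fell in 8 clusters.

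Of the 13 clusters with 3 or more genes, 7 had a promoter summit and 6, with 35 genes, had none. In no cluster did all genes have one. The cluster from cyp-33C4 to cyp-33C7 (V 2236140 to 2252591) came closest, with 3 of 5 genes and 2 distinct peaks. The 4 genes from gst-6 to gst-9 (II 4879891 to 4893573) had summits at gst-7 and gst-9, and the 4 from ugt-26 to ugt-25 (I 4721131 to 4735276) at ugt-28 and ugt-25. The 8 genes from cyp-13A1 to cyp-13A8 (II 9779181 to 9807569) had summits at cyp-13A5 and cyp-13A8.

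In each of 3 further clusters 1 gene alone had a promoter summit in the optimal list. The contrast depends on the limit of that list. In the pooled list gst-24 (rank 9062) came after gst-20 (rank 4213), and gst-28 (rank 7916) after gst-27 (rank 799). Only gst-20 had a promoter summit among the 9 genes from gst-20 to gst-18 (II 13608154 to 13630887), only gst-27 among the 9 from gst-26 to gst-35 (II 15163817 to 15185389), and only ugt-18 among the 3 from ugt-18 to ugt-15 (V 12820260 to 12830114). Of the 14 pairs, only ugt-19 and ugt-20 had one, at ugt-19. Median protein identity over all pairs was 55.9% in the gst-20 cluster and 70.6% in the gst-26 cluster. GST-20 itself had 31.8% to 46.8% identity to its 8 neighbours, while GST-27 had 48.1% to 85.2%.

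The largest cluster had no summit in the optimal list. It runs from cyp-35A5 to cyp-34A10 (V 3936326 to 3972991) with 10 genes of the cyp-35 and cyp-34 subfamilies, among which cyp-35A genes are known for strong induction by foreign compounds. Its span with 1 kb on each side held 1 summit of the pooled 30000, at rank 14045. The clusters from ugt-40 to ugt-36 (6 genes), cyp-14A1 to cyp-14A4 (4), ugt-5 to ugt-3 (4) and cyp-25A1 to cyp-25A3 (3) held none of the 30000, and that from ugt-12 to ugt-13 (8) held 1, at rank 15485. In the top 5982 of a single replicate, 3 of these 6 clusters did have a promoter summit, at cyp-34A8 (rank 5020, replicate 3), cyp-14A4 (rank 2340, replicate 7) and ugt-13 (rank 4536, replicate 7). The promoter 36-mers of the 6 clusters had median uniqueness of 82.8% or more. Single genes had less, with 57.5% in cyp-25A3, 73.5% in ugt-3, 75.7% in ugt-10 and 79.9% in cyp-35A5. Repeated sequence limits what a missing peak shows in those genes. The gene cyp-25A4 lies beyond the 10 kb limit from cyp-25A1 to cyp-25A3 and had a peak.

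**Figure D5:**
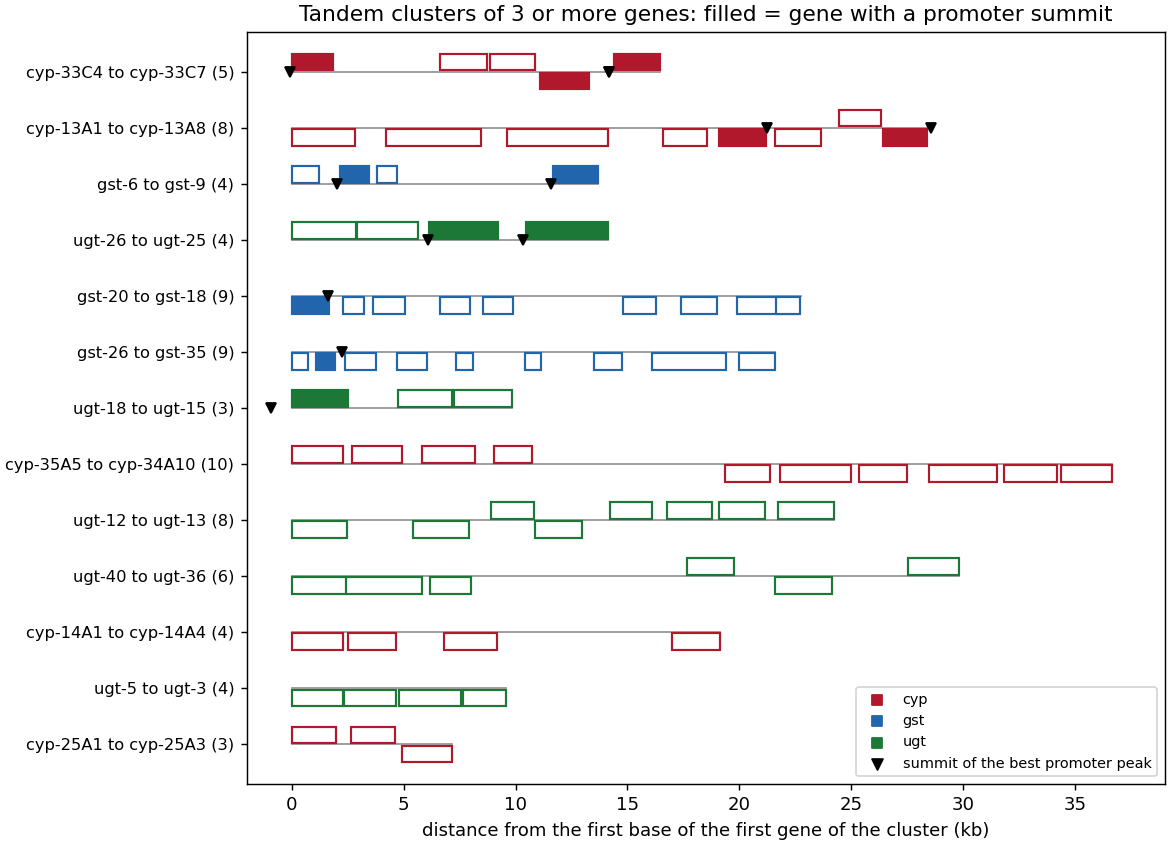
Tandem clusters of 3 or more cyp (red), gst (blue) or ugt (green) genes, drawn to scale in kb from the first base of the first gene, with genes above the line on the plus strand and below it on the minus strand; filled boxes have an optimal promoter summit and triangles mark the best summit. Of the 13 clusters, 7 have filled genes, at most 3 each, and the 6 at the bottom have none.

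Within the clusters of 3 or more, the 2 outermost genes had a promoter summit in 7 of 26 cases (26.9%, 13.7% to 46.1%) and the inner genes in 5 of 51 (9.80%, 4.26% to 21.0%), a split looked at after the values were seen. The intervals overlap. The peak sequences themselves were in general not repeated along a cluster. The 101 bp around a member's summit were at most 65.3% identical to the promoter of any other gene of its cluster, and medians against the promoters of other family members ran over 54.5% to 61.4%. The exception was cyp-33C4, whose window has a copy of 94.1% identity in the promoter of its neighbour cyp-33C3. Only 75.5% of the 36-mers in the cyp-33C4 peak occur once in the genome, and cyp-33C3 had no optimal promoter summit. Reads from the 2 copies can be hard to tell apart, so this assignment is uncertain.

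Repeated sequence limited the view for some genes. Fewer than 90% of promoter 36-mers were unique for 30 of 184 members, against 12.9% of all genes (2585 of 19973). Of these 30 members 2 had a promoter summit, cyp-13A8 (51.6% unique) and cyp-25A4 (58.0%), and of the 2585 genes 201 did. Within the peak intervals themselves, 100% of 36-mers were unique for cyp-13A8 and 81.9% for cyp-25A4. For cyp-13A5, which is not among the 30, the peak value was 89.6%. In gst-10, whose product removes products of lipid peroxidation, no promoter 36-mer was unique, and in gst-39 21.4% were, so a missing peak there does not show missing binding.

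Chromosome V, which is rich in these families, carried 92 of the 184 genes and 6 of the 23 with a promoter summit (6.52%), against 10.5% of all its genes. Chromosome II carried 38 members, 7 with a summit (18.4%, against 13.3%). Had each member the share of all genes on its chromosome, 12.7% of members or 23.4 genes would have a promoter summit, close to the 23 found. The same figure was 13.2% for gst, against 20.9% found, 12.6% for cyp, against 10.8%, and 12.6% for ugt, against 8.96%.

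Other genes that act with these enzymes were counted from a list of 51, chosen with earlier results of these data known. Of them 12 had a promoter summit (23.5%, against 14.9% of all genes). Among export pumps, 3 of 22 did. The strongest was mrp-2, an ABC transporter of the multidrug resistance protein family, whose peak (X 573166 to 573793) lay 786 bp upstream at rank 37 with 14.4 in replicate 3 and 15.5 in replicate 7 (14.9 ± 0.807). This is above the relative signal of all member peaks. The heme exporter gene mrp-5 had 1.06 ± 0.285 and the P-glycoprotein gene pgp-1 had 0.562 ± 0.0963.

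Among regulators of detoxification 5 of 10 had a promoter summit (50%, against 14.9% of all genes). That is a small count from the same chosen list. These were the nuclear hormone receptor genes nhr-48 (2.57 ± 0.928), nhr-8 (1.63 ± 0.450) and nhr-86 (0.459 ± 0.191), wdr-23 (1.89 ± 0.747), whose product keeps SKN-1 low, and skn-1 (0.525 ± 0.103), the Nrf family factor that drives many gst genes. Of 3 genes that supply glutathione, 2 had a summit (66.7%, against 14.9% of all genes). They were gss-1 for the synthetase (1.00 ± 0.197) and gsr-1 for the reductase (0.550 ± 0.00203). Each of these peaks lay in the promoters of 2 protein-coding genes. The P450 partner cytb-5.1 (1.62 ± 0.250) and the flavin monooxygenase fmo-5 (0.593 ± 0.613) completed the 12, and none of 5 glutathione transferase genes with gsto- or gstk- names had one. By the measure used for the members, the peaks of pgp-1, nhr-86, skn-1, gsr-1 and fmo-5 were not held by both replicates. Peaks were assigned by position, and expression was not measured.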

How the data were processed

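Peak lists on the ce11 build in narrowPeak format were analysed. Per the text files deposited with them, lists of 30000 peaks were made from replicate 3, from replicate 7 and from their pooled alignments, always against 1 control file, and 1 optimal list thresholded on the irreproducible discovery rate. The signal value of each peak is the authors' deposited value. The peak caller and threshold are not given in the sources used here. The 5982 optimal peaks were the strongest of the pooled list, which was checked on the lists. Genes came from Ensembl release 115 on WBcel235, the same sequence. Replicate signals were taken from the strongest summit within 100 bp and divided by their median over optimal peaks (204 in replicate 3, 112 in replicate 7). Shares have 95% Wilson intervals (SciPy 1.17.1). No test between groups was possible. Protein pairs were aligned with Biopython 1.88 (gap opening 11, extension 1). Promoter assignment, clustering and summit matching recovered planted cases on simulated data. Named were all members with an optimal promoter summit, clusters of 3 or more by first and last gene, the 5 strongest members without one, related genes with one and, after values were seen, genes reached in 1 replicate only, gene body peaks and repeated promoters. Members, lists and sequence words were chosen with earlier results of these data known. TTGCGAAA and AGACGCAG came from an earlier search of these peaks. Alternatives were narrower (500 and 100 bp) and wider (2000 and 500 bp) promoters, every transcript start, the nearest gene only, the strongest 50% of peaks, each replicate left out, the peak nearest the 5′ end, other cluster limits and other motif windows.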

Additional observations from a re-analysis of the deposited data

How the results depend on the processing

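No paired analysis was possible because the 2 replicates form 1 group. Among the strongest 50% of optimal peaks 15 members had a promoter summit (8.15%, against 9.16% of all genes), 4 of them gst genes. This limit removed cyp-13A5, gst-1, gst-7, gst-20, gst-42, gst-43, ugt-24 and ugt-25. With 1 replicate left out the gst count ran over 5 to 9, the lower value without replicate 3, the cyp count over 8 to 9, the ugt count over 7 to 8 and the count of all members over 21 to 25. The gst share was then 11.6% without replicate 3, against 13.5% of all genes, and the gst family no longer had the highest share either there or among the strongest 50% of peaks. The median relative signal ran over 1.34 to 1.38 with 1 replicate left out, and was 1.08 when the peak nearest the 5′ end was taken. The cause of these shifts was not tested. The other 38 recomputed counts were within 1.5 times the reported ones or moved by less than the spread between replicates. Narrower promoters gave 21 members (11.4%, against 11.5% of all genes) and the nearest gene only 20 (10.9%, against 11.6%). Wider promoters gave 30 (16.3%, against 19.8%), adding cyp-14A5, cyp-25A1, cyp-35A4, cyp-37A1, gst-8, gst-26 and gst-39. The summits so assigned to gst-8 and gst-26 are those already counted for their neighbours gst-7 and gst-27. Cluster limits of 5 kb, 20 kb or 1 strand gave 12 to 14 clustered members with a summit. The words TTGCGAAA and the C/EBP core kept their counts of 4 and 1 in windows of 100 bp, while TGATGCAA went to 4 and TGATAA to 6. Depth is unknown, and its part in peaks found in 1 replicate only was not tested.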

Other observations

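Strong optimal peaks also lay in or beside the clusters without being in a promoter of the enzymes. In the cluster from gst-26 to gst-35, a peak at II 15173173 to 15173629 ranked 197, with a relative signal of 5.84 in replicate 3 and 6.58 in replicate 7 (6.21 ± 0.524). It held TTGCGAAA, was stronger than the gst-27 peak of the same cluster, and its summit lay 1463 bp from the nearest annotated 5′ end, that of gst-39. Promoters of 2000 bp assign it to gst-39. Between cyp-35A3 and cyp-35A4, a peak at V 4024765 to 4025268 ranked 287 (4.95 ± 0.0566), 30 bp from the 5′ end of K09D9.1, a gene of neither family. Past the end of ugt-56, the neighbour of ugt-55, the summit of a peak at V 12261168 to 12261885 ranked 36 (15.7 ± 4.65) and lay in the 5′ UTR of tbb-6, which encodes a beta tubulin. A weaker summit in the cluster from ugt-26 to ugt-25, inside ugt-25 and outside its exons, ranked 3658 and held TTGCGAAA. Its relative signal was 0.363 in replicate 3 and 1.58 in replicate 7 (0.973 ± 0.863).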
